A study of Mus musculus with 42 samples.

Results

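The 9 genes followed here encode the MHC class II pathway and one of its regulators. They are the classical class II chains H2-Aa, H2-Ab1 and H2-Eb1, the peptide-loading chains H2-DMa and H2-DMb1, the invariant chain Cd74, the transcriptional coactivator Ciita, the protease Ctss and the ubiquitin ligase March1. They were taken by name from a table of 21674 mouse genes, and all 9 were listed there. The samples were pools of intimal RNA, flushed with Trizol from 3 to 5 carotid arteries, together with cultured aortic endothelial cells. Low flow was produced by partial ligation of the left carotid, the contralateral artery of the same mice carried high flow, and sham-operated arteries carried normal flow.

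The untreated 48 h groups were low flow, high flow and sham, with 3 pools each, from male C57BL/6J mice aged 6 to 7 weeks. A second set from the same strain, sex and age examined low flow at 48 h after PBS liposomes, clodronate liposomes (which deplete phagocytes such as macrophages), IgG non-specific antibody, an anti-GPIba antibody against platelets or an anti-Gr1 antibody against granulocytes, with 2 pools each. High flow pools in that set came from the IgG and PBS liposome mice, 2 each, and 1 further low flow pool each of PBS and clodronate liposomes was sequenced with the untreated pools. The 7 d set compared mice with endothelial deletion of Rbfox2 (EC-KO), aged 2 to 7 months and of both sexes, with littermate controls. Both carried Rbfox2 lox/lox and the Rosa26-mTmG reporter, and the EC-KO mice also carried Cdh5(PAC)-CreERT2. It held 3 low flow and 2 high flow pools of each genotype on a C57 background. The Cre is driven by an endothelial cadherin promoter and induced by tamoxifen, so that other cells of the pools keep Rbfox2. The cultures, with 1 library each, were 3 primary aortic endothelial preparations and 4 conditions of a TetOn-SV40T aortic endothelial line. The line was kept for 48 h alone, with 10% plasma, with platelets and bone-marrow-derived macrophages (monocytes in the methods), or with all of these. The primary cells were eGFP+ cells sorted from mice with Cdh5(PAC)-CreERT2 and mTmG, cultured for 5 d, and Cd31+ Icam2+ cells of Rbfox2 EC-KO and Rbfox2 control mice, cultured for 7 d.

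Class II molecules are heterodimers that carry peptides from endocytosed proteins to CD4+ T cells. The α and β chains assemble on the invariant chain, cathepsin S trims that chain in endosomes, and H2-DM exchanges its last fragment for antigenic peptide. Ciita is recruited to class II promoters by the factors that bind their X and Y boxes, and it is expressed constitutively in dendritic and B cells and after interferon gamma in endothelium and macrophages. MARCH1 is a membrane ubiquitin ligase of antigen-presenting cells that sends class II and the costimulatory molecule CD86 to lysosomes. In C57BL/6 mice the H2-Ea gene is defective, so that H2-Eb1 has no partner at the surface.

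On the mm9 build used for the table, 5 of the members lie close together on chromosome 17. H2-DMa spans 34272127 to 34276046, H2-DMb1 34290017 to 34297168, H2-Ab1 34400154 to 34406363, H2-Aa 34406276 to 34424772 on the minus strand, and H2-Eb1 34442828 to 34453144. Ciita lies on chromosome 16 (10480237 to 10527657), Ctss on chromosome 3 (95330708 to 95360325) and March1 on chromosome 8 (68141799 to 68995536), and Cd74 lies apart from them. H2-Ab1 and H2-Aa overlap at their 3′ ends, and since the counting is not stated to use strand, reads there cannot be told apart.

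Sequences just upstream of the start sites were taken from RefSeq on GRCm38.p6 for 6 of the 9 members. Cd74 was left out of the search, and H2-Ab1 and Ciita had no usable entry. In the stretches printed here, 5′ to 3′ on each gene's strand, the capitals mark the Y box core GATTGG, the 13 bases AACTGATGATGCT shared by H2-Eb1 and H2-DMb1, the palindrome TGACGTCA of H2-Aa, and in Ctss a pair of GAAA with 2 bases between them. The stretches are H2-Aa chr17:34287852-34287917 on the minus strand, H2-Eb1 chr17:34305762-34305827, H2-DMb1 chr17:34153084-34153149 and Ctss chr3:95526720-95526785 on the plus strand.
H2-Aa: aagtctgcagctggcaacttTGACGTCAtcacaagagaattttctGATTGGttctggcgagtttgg
H2-Eb1: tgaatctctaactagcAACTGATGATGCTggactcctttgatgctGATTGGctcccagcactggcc
H2-DMb1: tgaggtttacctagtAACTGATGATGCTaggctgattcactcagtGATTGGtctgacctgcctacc
Ctss: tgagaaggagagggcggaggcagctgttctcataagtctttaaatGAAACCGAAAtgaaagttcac

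GATTGG began 49 bases upstream of the start in H2-Aa, 60 in H2-Eb1, 62 in H2-DMb1 and 199 in H2-DMa. Searched on both strands of the 250 bases before each start, these letters were found in 14.56% of 32851 mouse promoters. AACTGATGATGCT was in only 2 of these promoters (0.006%), TGACGTCA in 1.546% and the spaced pair of GAAA in 2.977%. The shared run and the palindrome were picked after reading these sequences. Neither GATTGG nor AACTGATGATGCT was found in the windows of Ctss or March1. These are matches of letters in a window and were not tested as binding sites.

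Expected counts per library were lowest in the untreated pools (4064477 to 6794904) and higher in the depletion set (12286104 to 19035957) and the 7 d set (10318685 to 18633538). Levels are given as FPKM, computed from the counts, the effective gene lengths and the library total. Fold changes come from edgeR with TMM scaling, and a gene was called at a Benjamini-Hochberg adjusted p below 0.05 over all genes tested. Rbfox2, the deleted gene, was at 2.74 to 5.73 FPKM in the 7 d control pools and at 0.169 to 1.09 in the EC-KO pools, without overlap. The endothelial markers were present in every artery pool, with a sum over 10 genes of 963.2 to 1486 in untreated low flow against 3421 to 3836 in high flow and 2870 to 3830 in sham. The sum of 12 macrophage markers was 2179 to 3502 in the untreated low flow pools against 70.8 to 174.2 in high flow and 217.2 to 659.3 in sham. In bulk RNA, fewer cells of a type and less RNA per cell cannot be told apart. T cell markers were unevenly spread. The sum of 5 genes was 263.3 FPKM in the high flow EC-KO pool 4, 124.7 in the low flow control pool 1 of the 7 d set and 76.3 in sham pool H, and it passed 20 in 3 more of the 35 artery libraries. The labels do not say that replicate pools came from separate operations, so the p-values measure the spread between these pools.

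Low flow for 48 h raised all 9 genes over high flow in the untreated pools, where 23.6% of all genes tested were called higher. Cd74 was at 4355, 4698 and 2771 FPKM in low flow pools A, B and C and at 181.8, 225.7 and 409.1 in high flow pools D, E and F. H2-Aa, the α chain of the I-A molecule, was at 410.9, 426.7 and 559 in low flow against 87.5, 78.8 and 119.1 in high flow. Both genes thus held separate ranges, with every low flow pool above every high flow pool. The fitted difference was 4.73 ± 0.66 (SE, log2) for Cd74 and 3.02 ± 0.29 for H2-Aa, with edgeR adjusted p of 0.000210 and 1.81e-05. H2-Ab1, its β partner, rose by 3.20 ± 0.28 on the log2 scale and H2-Eb1 by 2.76 ± 0.26.

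Ctss showed the largest difference of the 9 genes in this comparison. It was at 332.4, 383.5 and 415.6 FPKM in low flow and at 2.52, 10.0 and 19.6 in high flow, a log2 difference of 5.90 ± 0.61 (edgeR adjusted p = 2.7e-05). March1 was a rare transcript, with 2.14, 1.92 and 2.42 FPKM in low flow and 0.177, 0.412 and 0.166 in high flow. The high flow values rest on 3 to 10 reads each, and the low flow pools stood apart from all of them (log2 difference 3.72 ± 0.42, edgeR adjusted p = 5e-05). Ciita was rare as well, at 0.911, 1.26 and 2.07 FPKM against 0.375, 0.328 and 0.660, and rose by 2.28 ± 0.35.

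The H2-DM chains, with Ciita, moved least. H2-DMa was at 59.4, 65.9 and 108 FPKM in low flow and 23.2, 16.2 and 37.4 in high flow, and its log2 difference was 2.28 ± 0.27. H2-DMb1 was at 40.7, 45.7 and 82.4 against 42.2, 26.3 and 39.8, so that low flow pool A lay below high flow pool D. It was called at 1.28 ± 0.21 (edgeR adjusted p = 0.000718), but with library totals in place of TMM it was 0.64 with an adjusted p of 0.224. That scaling lowered the median of all genes by 0.62 in this comparison, and the other 8 genes stayed called under it. H2-DMb1 and H2-DMb2 are near-identical copies, and the split of reads between them was estimated, which makes both levels uncertain. The median log2 difference of the 9 genes was 3.02 beside -0.07 for all 11236 genes tested.

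**Figure D1:**
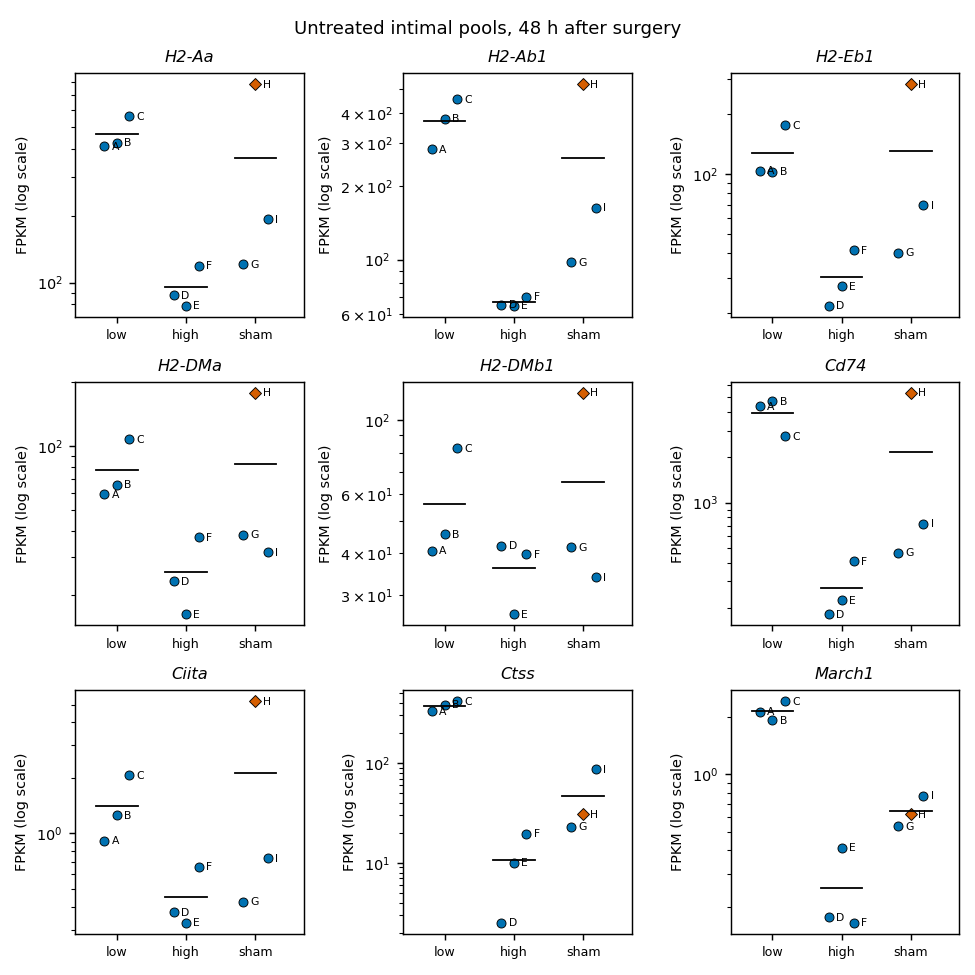
FPKM on a log axis of the 9 genes in the untreated 48 h pools, 1 point per pool with its letter and a line at the group mean, with sham pool H as an orange diamond. Low flow pools lie above high flow pools for 8 genes, and pool H lies above the other sham pools for all genes but Ctss and March1.

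Against sham, 2 of 9 genes were called higher in low flow, a share near the 20.6% of all genes tested that were called higher. These were Ctss (23.1, 30.9 and 86.4 FPKM in sham pools G, H and I, log2 difference 3.79 ± 0.54, edgeR adjusted p = 0.00198) and March1 (0.536, 0.618 and 0.772, difference 2.49 ± 0.33, adjusted p = 0.00171). For these 2 genes every low flow pool lay above every sham pool. Cd74 was at 464, 5353 and 726.5 FPKM in sham, so that pool H was above all low flow pools. H2-Aa followed the same pattern with 121.2, 779.8 and 193.1, H2-Ab1 with 97.4, 524.6 and 163.2, and Ciita with 0.426, 5.21 and 0.736. The differences of these genes were not called, at 1.79 ± 0.96 for Cd74 (edgeR adjusted p = 0.16), 1.14 ± 0.60 for H2-Aa and 1.29 ± 0.55 for H2-Ab1 (adjusted p = 0.0898). H2-Ab1 was called with DESeq2, with no count filter and with the 3 groups in 1 fit, and Cd74 with library totals.

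Without pool H all 9 genes were called higher in low flow than in sham, in a fit that called 3008 of 11438 genes in either direction, against 4499 of 11164 with pool H. Cd74 was then 3.64 on the log2 scale (edgeR adjusted p = 0.0218), H2-Aa 2.33 (adjusted p = 0.0047) and H2-Ab1 2.28 (adjusted p = 0.00562), while Ctss was 3.57 and March1 2.46. In pool H the summed T cell markers were 76.3 FPKM against 4.4 in pool G and 7.0 in pool I, with Cd3e, a chain of the T cell receptor complex, at 20.4 against 0.367 and 2.38. Its macrophage marker sum of 217.2 lay next to the 217.7 of pool G and below the 659.3 of pool I. Of genes singled out after their values were seen, Irf1 was at 147.6 FPKM in pool H against 77.9 and 67.8, and Cd274 at 26.4 against 2.72 and 1.58. The whole list of 16 genes for class II transcription and interferon gamma signalling summed to 790.4 in pool H against 703.1 and 666.2, a narrower gap. Ifng itself had 0 counts in all 3 sham pools. The part of these cells or signals in the class II level of pool H was not tested.

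High flow and sham were compared over 8 of the genes, since March1 fell under the count filter. None was called, and of all genes tested 0.00% were called in either direction by edgeR. At an unadjusted p below 0.05 there were 7 of 8, all lower in high flow, without the share of all genes for comparison. DESeq2 called 0. Cd74 was -2.93 ± 0.81 on the log2 scale, H2-Ab1 -1.90 ± 0.50 and Ctss -2.11 ± 0.63, with edgeR adjusted p of 0.358, 0.338 and 0.364. The sham pools lay above the high flow pools without overlap for H2-Aa, H2-Ab1, Cd74, Ctss and the untested March1, and the median over the 8 genes was -1.97 beside 0.01 for all genes.

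Within a pool the genes did not keep a fixed proportion. The ratio of Cd74 to H2-Ab1 was 15.4, 12.4 and 6.09 in low flow, 2.78, 3.48 and 5.81 in high flow, and 4.76, 10.2 and 4.45 in sham. Ctss relative to H2-Ab1 separated the conditions more widely, at 1.17, 1.01 and 0.913 in low flow against 0.0386, 0.155 and 0.279 in high flow. In pool H this ratio was 0.0589, below both other sham pools (0.237 and 0.529), and March1 per 1000 units of H2-Ab1 was 1.18 there against 5.51 and 4.73. In pool H the class II transcripts thus lay above the low flow pools while Ctss and March1 lay within the range of the other sham pools.

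The other genes of the pathway were followed through lists named for their function. Among class II chains and chaperones beyond the members, H2-DMb2 was the single one of 5 with enough counts and rose by 5.57 ± 0.73 in low flow over high flow. Of 5 antigen processing enzymes, Ifi30 (a lysosomal thiol reductase, 2.59 ± 0.25) and Lgmn (asparaginyl endopeptidase, 1.06 ± 0.32) rose and Ctsd (cathepsin D) fell by 0.96. Of 14 tested genes for class II transcription and interferon gamma signalling, 5 rose and 9 were not called. Irf8 (5.43 ± 0.34) and Sfpi1, which encodes PU.1 (5.49 ± 0.63), are transcription factors of the myeloid lineage, while Ifngr1 (0.89 ± 0.30), Ifngr2 (2.13 ± 0.28) and Jak1 (0.64 ± 0.23) act at the interferon gamma receptor. The value of Jak1 is close to the shift of 0.62 between the 2 scalings. Irf1 (-0.39 ± 0.20, edgeR adjusted p = 0.14) was not called. The list had a median of 0.40.

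The costimulatory genes went both ways. Cd86, the CD28 ligand that MARCH1 also targets, rose by 4.82 ± 0.32 and Cd83, which opposes MARCH1 in dendritic cells, by 2.64 ± 0.36. Cd40 fell by 1.25 and Icosl by 2.45, and Cd274 was not called. Of the 5 tested MARCH ligases other than March1, March2 fell by 0.98, March5 by 0.80 and March6 by 0.82, and none rose. March8, the closest relative of March1, was at 1.23, 0.777 and 2.51 FPKM in low flow and 2.90, 4.49 and 2.78 in high flow, and was called lower in low flow with IgG (-1.20 ± 0.29) and with PBS liposomes (-1.28 ± 0.29). Macrophage markers rose for 9 of 11 tested genes, pan-leukocyte markers for 4 of 4, dendritic markers for 5 of 5 and neutrophil markers for 5 of 5, and no B cell marker had enough counts. The sum of 5 smooth muscle markers was 1438 to 2681 FPKM in low flow and 308.3 to 368.6 in high flow, with Acta2 (3.62 ± 0.40) and Tagln (2.48 ± 0.30) called higher and Myh11 and Cnn1 not called. Their part in the rise of the members was not tested.

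Platelet depletion lowered 6 of the 9 genes in low flow arteries relative to IgG, where 10.5% of all genes tested were called lower. March1 was at 3.68 and 4.66 FPKM with IgG and at 0.128 and 0 after anti-GPIba, that is 9 and 0 reads, with an exact Poisson upper limit of 0.0513 FPKM for the pool without reads. Ctss fell from 240.2 and 257 to 12.77 and 11.97. These were the steepest changes of the 9, at -6.02 ± 1.19 (edgeR adjusted p = 0.0211) and -4.36 ± 0.67 (adjusted p = 0.0125) on the log2 scale.

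The classical chains fell less. H2-Aa was at 324.6 and 216.7 FPKM with IgG and 60.5 and 72.6 after anti-GPIba, and H2-Ab1 at 481.3 and 396 against 83.8 and 92.3. The groups did not overlap for either chain, and the log2 differences were -2.05 ± 0.58 and -2.35 ± 0.60 (edgeR adjusted p = 0.0392 and 0.0321). H2-Eb1 (-2.40 ± 0.64) and H2-DMa (-2.13 ± 0.65) fell likewise. Cd74, at 740.1 and 710.2 against 144.2 and 261.2, did not pass the threshold (-1.87 ± 0.60, adjusted p = 0.0535), though it did in 5 alternative fits (adjusted p of 0.00576 to 0.0429), nor did Ciita (-1.84 ± 0.89) or H2-DMb1 (-1.43 ± 0.66). The groups did not overlap for these 3 genes either, and the share of all genes without overlap was not computed. The median of the 9 was -2.13 beside -0.04 for all 13401 genes tested. Leaving out either anti-GPIba pool left no member called and leaving out either IgG pool left Ctss alone, with 1 pool then standing for its group.

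Among the other pathway genes H2-DMb2 fell by 5.15, Ifi30 by 1.88, Irf8 by 3.50, Sfpi1 by 3.86 and Ifngr2 by 1.24, and no gene of the transcription and interferon gamma list rose (3 of 15 lower). Cd80, Cd86 and Cd40 fell by 6.49, 3.67 and 1.41, whereas Lgmn rose by 0.70 ± 0.21. All 7 tested MARCH relatives were not called. Macrophage marker sums were 2395 and 2246 FPKM with IgG and 234.1 and 355 after anti-GPIba, with 6 of 12 genes called lower, and 4 of 4 pan-leukocyte and 5 of 7 neutrophil markers were lower too. Endothelial marker sums were 1676 and 1252 with IgG against 2966 and 2832, and smooth muscle sums 2609 and 2771 against 390.9 and 559.3, where Acta2 fell by 2.90 and Tagln by 1.58. The part of these cells in the change was not tested.

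Granulocyte depletion left the 9 genes without a call. Cd74 was at 845.4 and 426.3 FPKM after anti-Gr1, on both sides of the IgG values, and H2-Ab1 at 523.1 and 195.7 likewise. Ctss was at 119.4 and 85.5 (-1.27 ± 0.59, edgeR adjusted p = 0.279) and March1 at 1.34 and 1.64 (-1.46 ± 0.93, adjusted p = 0.405), both below the IgG pools without overlap. H2-DMa, at 52.9 and 22.8 against 74.8 and 59.9, also lay below them. Of all genes 0.00% were called in either direction by edgeR, no member reached an unadjusted p below 0.05, and DESeq2 called 0 members. The neutrophil marker sum was 22.6 and 42.7 against 422.8 and 112.5 with IgG, and the macrophage sum was 1269 and 1341 against 2395 and 2246, also without overlap. Their part in the Ctss and March1 values was not tested.

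Clodronate liposomes gave lower values than PBS liposomes for most of the genes, without a call. Ctss was at 84.4 and 147.5 FPKM with PBS liposomes and at 10.8 and 15.1 with clodronate (-3.26 ± 0.64, edgeR adjusted p = 0.081), and March1 at 0.925 and 2.31 against 0.319 and 0.156 (-2.86 ± 1.02, adjusted p = 0.267). H2-Ab1 was at 97.2 and 214.4 against 52.6 and 52.5 (-1.67 ± 0.59), H2-DMa at 19.1 and 43.1 against 11.0 and 8.13 (-1.80 ± 0.65), and Cd74 at 126 and 292 against 78.9 and 104 (-1.29 ± 0.59). The treatments did not overlap for any of these genes, and the share of all genes without overlap was not computed. Of all genes 0.119% were called lower. An unadjusted p below 0.05 was reached by 6 of the 9 members, a looser limit for which the share of all genes was not computed. DESeq2 called 2, Ctss and March1. Ctss was also called by edgeR with the replicate block, with reads trimmed to 100 bp, with no count filter and without clodronate pool 2. The macrophage marker sum was 1371 and 2243 against 266.8 and 257.2. Neutrophil sums were 166.4 to 480.1 with PBS liposomes against 55.1 to 68.6 with clodronate, pan-leukocyte sums 130.8 to 273 against 32.1 to 37.8, and smooth muscle sums 1775 to 3553 against 1431 to 1552. Endothelial sums were higher with clodronate (1072 to 1237 against 1757 to 2735), as were T cell sums (3.48 to 4.24 against 9.20 to 11.1). The part of these cells was not tested.

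The pair of liposome pools sequenced with the untreated samples, 1 per treatment and so without a test, had lower values with clodronate for all 9 genes. Ciita, at 1.15 against 0.507 FPKM, was the exception to the order of the pools above, where it was at 0.367 and 0.986 with PBS liposomes and at 1.19 and 0.303 with clodronate. Ctss was at 202.8 FPKM with PBS liposomes (95% exact Poisson interval 191.9 to 214.2, which covers counting error only) and at 20.01 with clodronate (16.9 to 23.6). March1 was at 1.92 (1.38 to 2.62) against 0.170 (0.0464 to 0.436), and Cd74 at 625.1 against 307. H2-DMb1 differed least, at 32.5 against 27.0.

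**Figure D2:**
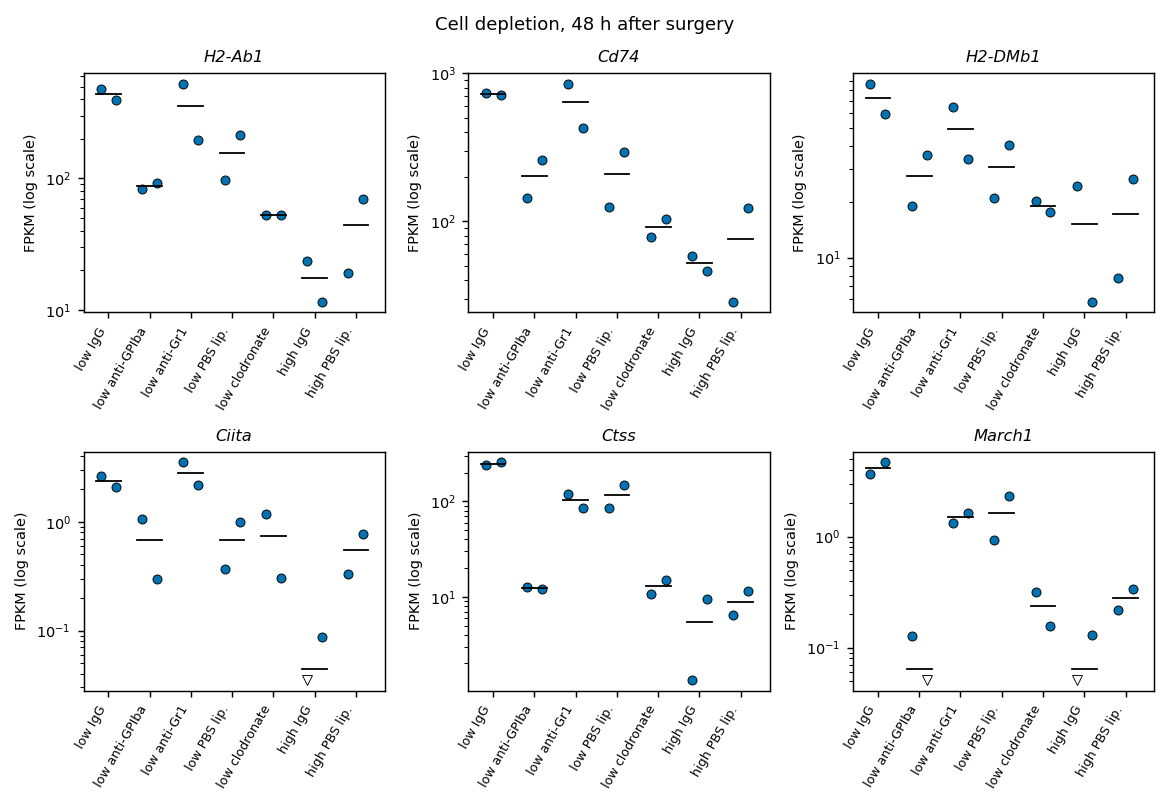
FPKM on a log axis of 6 of the genes in the depletion set at 48 h, 2 points per group, 1 per pool, with a line at the mean, and open triangles at the bottom for pools with 0 reads. Ctss and March1 sit lowest among the low flow groups after anti-GPIba and clodronate, and the high flow pools lie below the low flow pools of the same control treatment for Ctss, March1 and Cd74.

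The control treatments repeated the low against high flow contrast, although the low and high flow pools were in different sequencing runs and the 2 cannot be told apart. With IgG, all 9 genes were called higher in low flow, where 22.8% of all genes were. Ctss was at 1.34 and 9.46 FPKM in high flow, Cd74 at 58.0 and 46.4, and March1 at 0 and 0.129, that is 0 and 7 reads. The log2 differences were 5.41 ± 0.71 for Ctss, 3.71 ± 0.65 for Cd74, 5.84 ± 1.21 for March1 and 2.20 ± 0.69 for H2-DMb1, the smallest. H2-DMb1 was no longer called without low flow pool 1 (adjusted p = 0.0909), low flow pool 2 (0.0613) or high flow pool 2 (0.131). Macrophage sums were 99.9 and 317.3 FPKM in high flow with IgG and 136.5 and 226.6 with PBS liposomes, below those of the low flow pools. With IgG, 10 of 12 macrophage markers were called higher and 6 of 10 endothelial markers lower in low flow, and with PBS liposomes 7 and 5, and their part was not tested. With PBS liposomes 5 of 9 were called, where 19.6% of all genes were. These were Ctss (6.38 and 11.4 FPKM in high flow, 3.81 ± 0.66), H2-Eb1 (2.25 ± 0.65), H2-Ab1 (1.93 ± 0.59), H2-DMa (1.85 ± 0.65) and H2-Aa (1.78 ± 0.58). March1 (2.64 ± 1.01, edgeR adjusted p = 0.0619), Cd74 (1.57 ± 0.60, adjusted p = 0.0606) and H2-DMb1 (0.96 ± 0.66) were not. Ciita was not called either and differed least, at 0.367 and 0.986 FPKM in low flow and 0.332 and 0.765 in high flow. Without high flow pool 1 or low flow pool 2 of the PBS liposome group, Ctss alone was called. Icosl was lower in low flow with both treatments, as in the untreated pools.

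**Figure D3:**
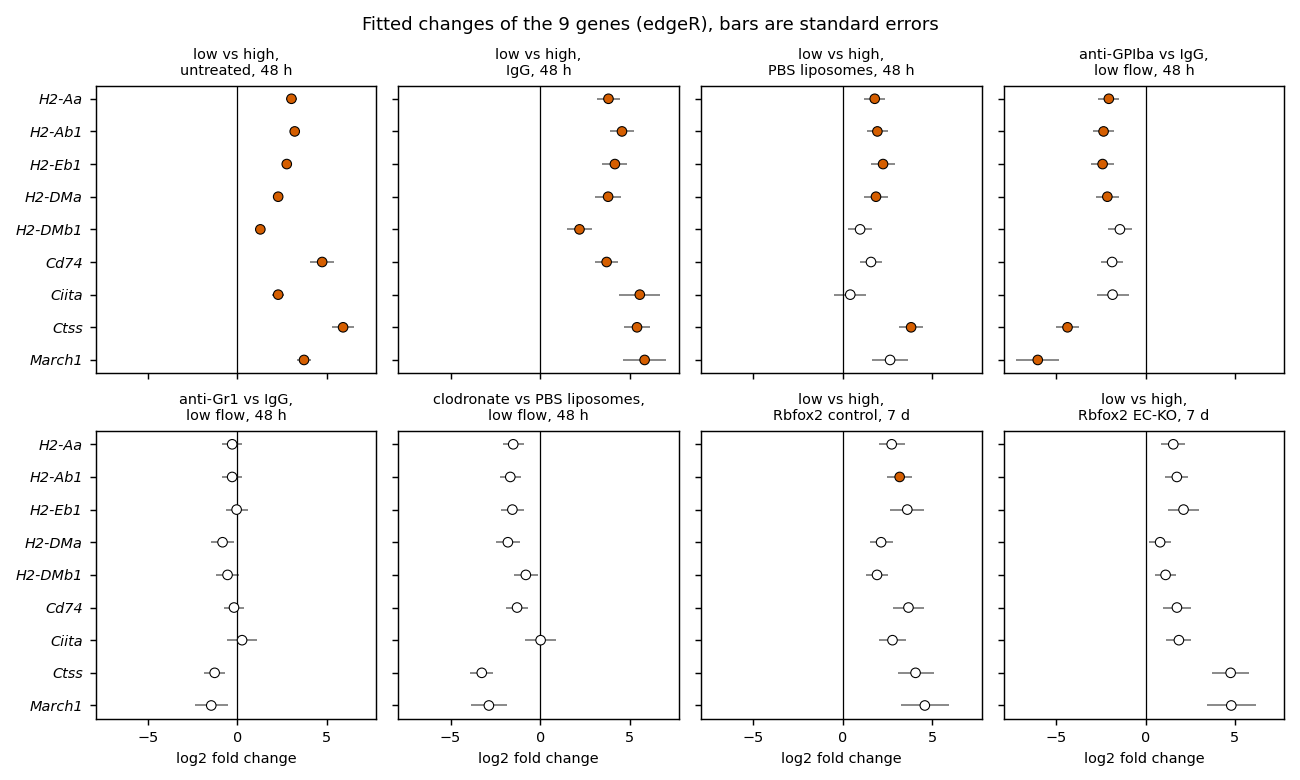
Fitted log2 fold changes of the 9 genes in 8 comparisons with standard errors as bars, filled where the adjusted p is below 0.05 and open otherwise. The fitted low against high flow values are above 0 for all genes in all 5 flow comparisons, though Ciita with PBS liposomes changed sign when low flow pool 2 or high flow pool 1 was left out, and Ctss and March1 lie furthest from 0 in the anti-GPIba and clodronate comparisons.

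At 7 d all 9 genes had positive differences between low and high flow in both genotypes, with fewer genes called overall. All high flow pools were in 1 sequencing run, while the low flow pools of each genotype were spread over 3 runs. Each low flow pool of a genotype was the only one in its run, so differences among these pools and between runs cannot be told apart. In control mice Cd74 was at 1443, 1275 and 242.4 FPKM in low flow pools 1, 4 and 5 and at 116 and 30.4 in high flow pools 4 and 5. H2-Ab1 was at 373, 709.4 and 105.8 against 56.8 and 25.8, and was called (3.17 ± 0.70, edgeR adjusted p = 0.0482). It was the only member called, where 0.959% of all genes were called higher. Macrophage marker sums were 322.2 to 1474 FPKM in low flow and 75.3 to 143 in high flow, smooth muscle sums 639.9 to 1051 against 123.4 to 145.5, and endothelial sums 1469 to 2795 against 4552 to 4823, and their part was not tested. Low flow pool 5 was lowest for every gene except March1, yet above both high flow pools for all but H2-DMb1, which was at 18.6 there and at 22.9 in high flow pool 4.

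The other 8 had edgeR adjusted p between 0.0546 and 0.0892, at 3.67 ± 0.88 for Cd74, 4.06 ± 1.00 for Ctss and 4.58 ± 1.35 for March1, and all 9 had an unadjusted p below 0.05. DESeq2 called 9 and edgeR 7 without low flow pool 1, the control pool with a T cell marker sum of 124.7 FPKM against 2.9 and 0.3 in the other 2. Those fits also called more of all genes in either direction, at 2219 of 13221 and 3897 of 13251 beside 320 of 13352. In that pool Cd74 was highest of the 3 while Ctss was at 29.6 against 186.7 and 23.5, and March1 was lowest at 0.788 against 4.78 and 1.29. With the replicate block edgeR called 7 as well, with 2940 of all genes, and with the 2 groups alone or with library totals 0. Leaving out low flow pool 4 or either high flow pool also left 0, and leaving out low flow pool 5 left 2.

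In EC-KO mice the low flow pools were closer together for the class II genes. Cd74 was at 1625, 1565 and 2117 FPKM in pools 1, 4 and 5, H2-Ab1 at 560.9, 507.3 and 628.6, Ctss at 74.8, 179.9 and 124, and March1 at 1.01, 3.94 and 2.57. In high flow pools 4 and 5 Cd74 was at 240.7 and 783.4, H2-Ab1 at 128.8 and 202.7, Ctss at 5.64 and 3.72, and March1 at 0.0477 and 0.126, that is 3 and 9 reads. Low and high flow did not overlap for any of these 4 genes. No member was called by edgeR, where 0.352% of all genes were called higher, and DESeq2 called 3. At an unadjusted p below 0.05 there were 6, without the share of all genes for comparison. In other edgeR fits 7 were called with the 2 groups alone, 2 (Ctss and March1) with the replicate block or without the low flow pools numbered 1, and 1 (Ctss) with no count filter. Of all genes these fits called 858, 1317, 1100 and 221 in either direction, beside 146. Ctss (4.75 ± 1.03, edgeR adjusted p = 0.0641) and March1 (4.79 ± 1.36, adjusted p = 0.134) had the largest differences, and Cd74 stood at 1.75 ± 0.80. The macrophage marker sums were 924 to 1672 FPKM in low flow and 98.2 to 117.4 in high flow. Smooth muscle sums were 590.1 to 987.9 against 104.9 to 126.6, and endothelial sums 2182 to 2467 against 4801 to 4908, and their part was not tested.

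Endothelial deletion of Rbfox2 gave no call for the members on either side. In low flow the differences were 0.86 ± 0.57 for H2-Aa and 0.88 ± 0.67 for Cd74, and the groups overlapped for every member except Cd74. Of all genes 0.00% were called by edgeR in either direction. The deleted gene Rbfox2 was thus not called there, although its pools did not overlap between genotypes. The lack of a call therefore does not show that the members were unchanged. No member had an unadjusted p below 0.05 there, and DESeq2 called 0. In high flow both EC-KO pools lay above both control pools for H2-Aa (95.9 and 192.8 FPKM against 50.1 and 19.1), H2-Ab1 and Cd74. The log2 differences were 2.03 ± 0.73, 1.98 ± 0.69 and 2.79 ± 0.88, each with an edgeR adjusted p of 1, and 0.00749% of all genes were called. At an unadjusted p below 0.05 there were 5 of 9 members, and the share of all genes at that limit was not computed. DESeq2 called 0 members. Ctss and March1 overlapped between genotypes in high flow.

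Those high flow EC-KO pools carried T cell markers at 263.3 and 25.1 FPKM, against 9.6 and 0.0 in the controls, with Cd3e at 64.3 and 7.02 against 2.26 and 0. The pan-leukocyte marker sums were 285.6 and 32.3 against 23.4 and 4.13, and the B cell sums 5.96 and 3.12 against 1.96 and 1.94, both higher in EC-KO without overlap. Adipocyte sums were also higher in EC-KO (31.7 to 44.0 against 0 to 21.8), and neutrophil sums were lower (2.05 to 11.8 against 16.4 to 20.1). Macrophage sums overlapped (117.4 and 98.2 against 143 and 75.3). The part of these cells in the difference was not tested. Pool 5, with fewer T cell transcripts, had the higher class II level of the 2. Without pool 4 the Cd74 difference was 3.44 and without pool 5 it was 1.65, and H2-Ab1 was 2.31 and 1.57. Cd274 was at 5.65 and 14.4 FPKM in EC-KO against 6.92 and 4.50. The test of whether the flow difference depended on genotype called no member and 0.00% of all genes by edgeR. It gave -1.91 ± 1.07 for Cd74 and -1.43 ± 0.87 for H2-Ab1, no member had an unadjusted p below 0.05, and DESeq2 called 0.

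**Figure D4:**
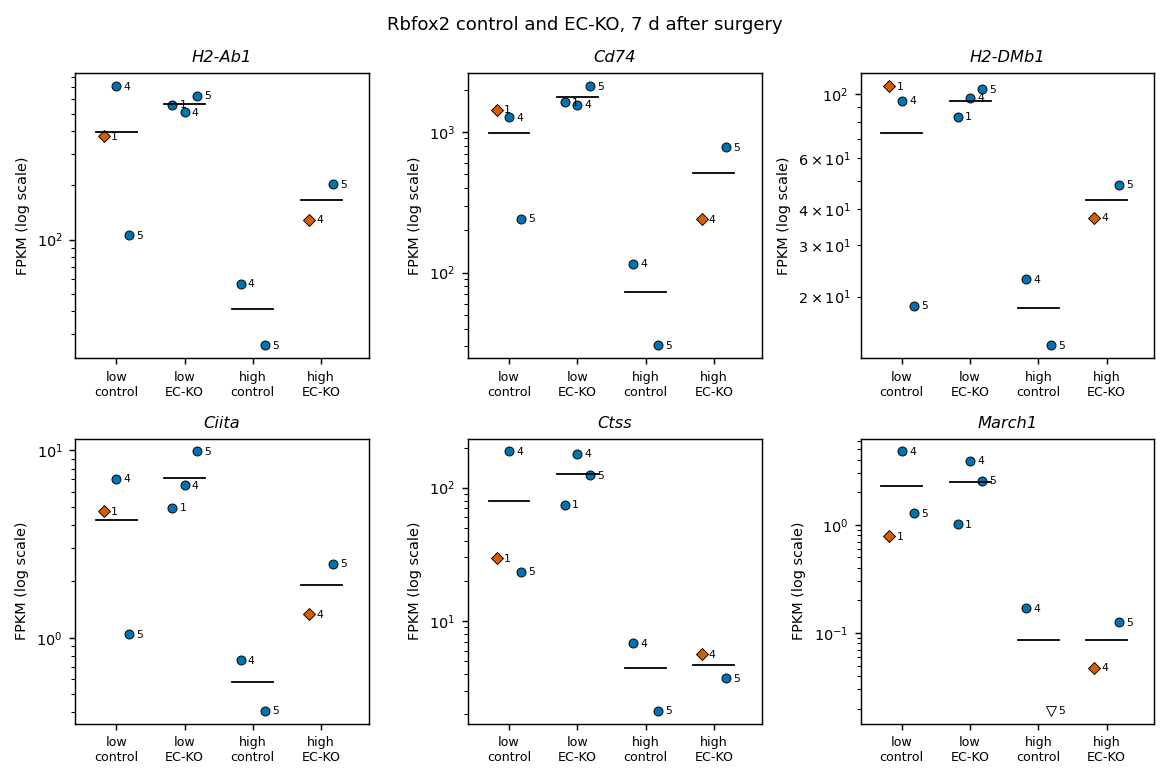
FPKM on a log axis of 6 of the genes in the 7 d pools, 1 point per pool with its number and a line at the mean, an open triangle for 0 reads, and orange diamonds for the 2 pools with T cell marker sums above 100 FPKM. EC-KO high flow pools lie above control high flow pools for H2-Ab1, Cd74, H2-DMb1 and Ciita but not for Ctss or March1.

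Few pathway genes were called at 7 d. Irf8 (4.04 ± 0.85) was higher and Icosl (-2.20 ± 0.31) lower in low flow of control mice, and Cd86 (4.70 ± 0.89) higher and Icosl (-1.59 ± 0.31) lower in low flow of EC-KO mice. No class II chain outside the members, processing enzyme or MARCH relative was called in any 7 d comparison.

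In cultured endothelial cells the classical class II chains and Cd74 were near the bottom of the measured range. Across the 7 cultures H2-Aa was at 0 to 0.866 FPKM, H2-Ab1 at 0.650 to 4.99, H2-Eb1 at 0.270 to 1.19 and Cd74 at 0.245 to 6.91, beside 28.7 or more for Cd74 in every artery pool. H2-DMb1 was the most abundant class II gene in the primary cells, at 5.96 in the eGFP+ preparation, 10.6 in Rbfox2 EC-KO and 4.33 in the control. The EC-KO value lay above high flow IgG pool 2 (5.80) and high flow PBS liposome pool 1 (7.78), within the artery range of this gene. Ciita had at most 13 reads in any culture. With 1 library each these values carry no replicate check.

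Ctss followed the added cells in the line. It had 0 reads in the line alone and 3 reads with plasma, and was at 24.0 FPKM (95% exact Poisson interval 21.7 to 26.4) with platelets and macrophages and at 16.9 (15.1 to 18.8) with plasma, platelets and macrophages. March1 had 0, 0, 4 and 7 reads in the same order. Emr1, a macrophage receptor, was at 0, 0, 1.33 and 1.48 FPKM, so both genes appeared in the libraries that contained the added macrophages. In the sorted primary cells Ctss was at 7.20 (6.00 to 8.57) in the control preparation and had 1 read in EC-KO, and Emr1 was at 1.59 and 0. The macrophage marker sum was 394.3 in that control preparation and 52.1 in EC-KO.

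In order of group means within the 150 bp set, the geometric mean of H2-Aa, H2-Ab1, H2-Eb1 and Cd74 ran from low flow EC-KO at 7 d (564.7 ± 85.2 FPKM, SD, n = 3) down to high flow IgG (18.6 ± 6.94, n = 2). Between them came low flow control at 7 d (334.2), IgG (328.6), anti-Gr1 (285.9), high flow EC-KO at 7 d (158.8), low flow PBS liposomes (113.6), anti-GPIba (74.6) and clodronate (42.9), high flow PBS liposomes (33.5) and high flow control at 7 d (32.0). Neighbours in this order overlapped in range except anti-GPIba and clodronate. March1 had another order, led by low flow IgG (4.17 ± 0.70, n = 2) and ended by anti-GPIba (0.0641). The low flow groups other than anti-GPIba and clodronate lay at or above 0.788 FPKM in every pool, and the remaining groups at or below 0.339. The anti-GPIba and clodronate pools thus shared the March1 range of high flow arteries. For H2-Ab1 the clodronate pools (52.6 and 52.5) also lay within the range of the control high flow pools (11.6 to 69.4), and the anti-GPIba pools (83.8 and 92.3) lay above it. Levels were not compared with the untreated pools, whose read length differed.

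Over the 35 artery libraries 8 of the members formed 2 groups by likeness, given as a description since the libraries share treatments, depth and 2 read lengths. On log2(FPKM + 0.1), Pearson's r between any pair of H2-Aa, H2-Ab1, H2-Eb1, H2-DMa, H2-DMb1 and Cd74 was 0.850 to 0.972, and Ctss with March1 gave 0.913. Ciita stood between them, at 0.731 to 0.882 with the class II genes and 0.579 and 0.667 with Ctss and March1. Across the groups r was lower, at 0.553 for H2-DMb1 with Ctss and 0.779 for H2-Ab1 with March1. The summed macrophage markers gave 0.965 with Ctss and 0.880 with March1 and 0.467 (H2-DMb1) to 0.697 (H2-Ab1) with the class II genes, and the pan-leukocyte sum gave 0.870 and 0.829 against 0.607 to 0.803. The genes nearest the class II mean among 12028 ranked were Aif1 (0.852), Slamf8 (0.850), Cd72 (0.832), Fyb (0.829) and Pkib (0.822), and those nearest March1 were Lyn (0.938), Havcr2 (0.937), Tgfbi (0.934), Cd300a (0.932) and Irf5 (0.932). Irf1 gave 0.004 with the class II mean, Irf8 0.753 and Cd83 0.804.

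**Figure D5:**
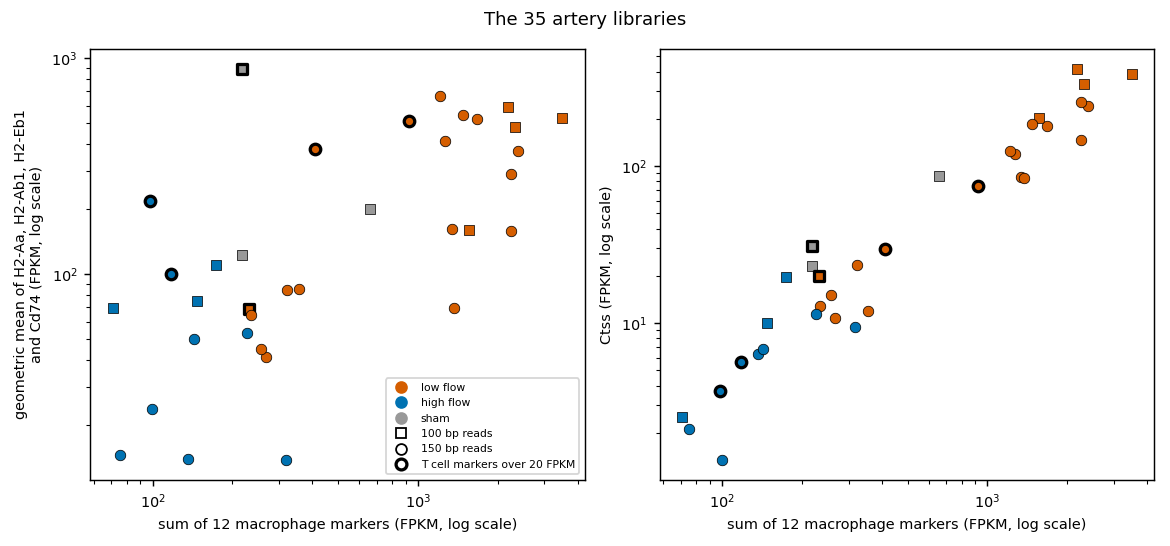
The geometric mean of H2-Aa, H2-Ab1, H2-Eb1 and Cd74 (left) and Ctss (right) against the sum of 12 macrophage markers, all in FPKM on log axes, 1 point per artery library, with colour for flow, shape for read length and thick edges for the 6 libraries with T cell markers over 20 FPKM, a limit set after seeing the values. Ctss lies along a narrow band, while the class II mean is scattered, with sham pool H at 887 and a macrophage sum of 217.2.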

How the data were processed

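Intimal RNA of pooled carotid arteries and RNA of cultured endothelial cells was amplified with a SMARTer low input kit and sequenced in 42 samples of 23 groups. The deposited table holds expected counts, which the authors estimated per gene with RSEM 1.2.15 after alignment to mm9 with STAR 2.5.1b, per the submitters' processing notes. The untreated pools, 1 primary preparation and 1 pair of liposome pools have 100 bp reads and the other libraries longer ones, so these sets were fitted separately. Of 204 value columns, 152 were not used, among them second runs that could not be tied to a sample.

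Expected counts were rounded to whole numbers (5.2 to 19.3% of values per library were not whole) and tested with the edgeR 4.0.16 quasi-likelihood test in R 4.3.3, with default count filter, TMM scaling and Benjamini-Hochberg adjustment over all genes tested at a threshold of 0.05. The untreated groups were fitted in pairs, the 7 depletion groups in 1 fit and the 4 groups at 7 d in 1 fit. FPKM was computed here from count, effective length and library total, and likeness on log2(FPKM + 0.1) over genes with a median of at least 10 counts. Exact Poisson intervals are at 95% and cover counting error only. The fits were run on simulated counts with a fixed spread common to all genes and no outlying pools, which does not measure their power in these pools. Depth was 4064477 to 19035957 counts per artery library.

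The members and the 14 lists (105 of 106 genes found) were chosen with earlier results of these data known. Named list genes are those past the threshold or defining a cell type, and Irf1, Ifng, Cd274 and March8 were singled out after their values were seen. Alternatives were DESeq2 1.42.0, no count filter, library totals, the 2 groups alone, a replicate block and leaving out each pool. Reads trimmed to 100 bp and the 7 d fit without either low flow library 1 were added after seeing the data. At 7 d the low flow pools of both genotypes with the same number gave correlations of deviations of 0.489, 0.170 and 0.272. The labels do not say what the numbers mark. The pools numbered 1 shared a sequencing run, and those numbered 4 and 5 did not. The block changed no call in the comparison of these genotypes in low flow.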

Additional observations from a re-analysis of the deposited data

How the results depend on the processing

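Of 116 tested member values 32 passed the threshold, and in 307 alternative fits of these none changed sign and 45 no longer passed. Of 897 fits of the other values 38 changed sign and 78 passed. The number of members called moved as follows, and the cause was not tested. The number of all genes called in each fit is not given here, and where it is given above it also changed. Low flow against sham ranged from 2 to 9 when 1 pool was left out, with 9 without pool H. Anti-GPIba against IgG ranged from 0 to 1 when 1 pool was left out, and gave 9 with the 2 groups alone, 7 with DESeq2, no filter or trimmed reads, and 5 with library totals. Low against high flow with IgG gave 8 to 9 with 1 pool left out. Clodronate against PBS liposomes gave 2 with DESeq2, 1 with no count filter, 1 with reads trimmed to 100 bp, and 0 to 1 with 1 pool left out. Low against high flow with PBS liposomes gave 2 with the 2 groups alone, 7 with DESeq2 or no filter, 4 with library totals and 1 to 6 with 1 pool left out. At 7 d in control mice it gave 9 with DESeq2, 5 with no filter, 0 with library totals, 0 with the 2 groups alone, 7 without either low flow library numbered 1, and 0 to 7 with 1 pool left out. In EC-KO mice it gave 3, 1, 7 (2 groups alone) and 2 (neither library numbered 1).

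With the replicate block the count was 1 for clodronate against PBS liposomes (Ctss), 7 for low against high flow in control mice at 7 d and 2 in EC-KO mice. It was 7 for anti-GPIba and 6 for PBS liposomes. The numbers were not shown to pair these pools (correlations between -0.068 and 0.416, 2 numbers each). No paired analysis was possible for the untreated pools because their columns carry pool letters. The alternative with the other sequencing run was not run, since its columns could not be tied to samples. With 2 or 3 pools a group, and 0 to 10 March1 reads in many high flow pools, small differences were not detectable at this depth.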
